A study of Mus musculus with 4 samples.

Results

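The genes described here form the D cyclin, CDK4/6 and RB pathway, the switch that commits a cell to S phase. They are the D cyclin genes Ccnd1, Ccnd2 and Ccnd3, the kinase genes Cdk4 and Cdk6, the inhibitor genes Cdkn1b, Cdkn2a, Cdkn2b and Cdkn2c, and the retinoblastoma gene Rb1. Their probes were those non-control probes of the array whose RefSeq accession, without its version, belongs to 1 of these 10 symbols in the RefSeq gene table of GRCm38.p6. This gave 20 of 56605 distinct probes, for 10 of the 23771 genes with a probe. The arrays were 4 single-colour Agilent mouse arrays of S-180 cells, a mouse sarcoma line grown in medium with 10% serum. In the fluoxetine group (2 arrays) the cells had 20 µM fluoxetine, an antidepressant that blocks serotonin uptake, for 12 h, and in the control group (2 arrays) they were cultured for 12 h without it. No vehicle is named for the control in the labels, which call the samples of a group biological replicates and give no word on separate cultures, so the p-values rest on a spread between samples that may be technical.

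As background, D cyclins are made in response to growth signals and bind CDK4 or CDK6. The active kinases phosphorylate RB, which otherwise holds E2F transcription factors inactive. Inhibitors of the INK4 family (the products of Cdkn2a, Cdkn2b and Cdkn2c) bind CDK4 and CDK6 directly, whereas p27, the product of Cdkn1b, binds complexes of cyclins and CDKs, above all those of CDK2. Cdkn2a also encodes ARF, a protein read in another frame that restrains MDM2 and so spares p53.

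Every array carried 62976 spots, and between 51.7% and 53.5% of the non-control spots were well above background, with 0 saturated. The file headers give a single slide and scan number (1) for every array, so neither could serve as a block. Of 9 mesenchymal markers, 5 were detected well above background on each array of the control group and 5 in the fluoxetine group, among them Vim and Fn1, whereas Col3a1, Pdgfrb and Thy1 were on no array. These were not the same 5 genes in each group. Col1a2 was so on both control arrays and on no fluoxetine array, and Fbn1 on both fluoxetine arrays and on no control array. Of 6 epithelial markers, Krt8, Krt18, Krt14 and Epcam were also well above background on every array. Krt5 was so on 1 control array and on both fluoxetine arrays, and Cdh1 was on no array. Of 9 leukocyte markers, 4 were well above background in both groups (Cd3e, Itgam, Csf1r and Cd68), whereas the pan-leukocyte gene Ptprc was on no array. The summed signal of the 9 leukocyte markers was 11510 and 11595 on the control arrays and 21764 and 22159 on the fluoxetine arrays, and Cd68 alone went from 8752 and 9101 to 20844 and 21034. In the same list Itgam, a macrophage integrin gene, went from 2210 and 2007 to 442 and 532. By the threshold given below, 2 of the 4 tested leukocyte markers rose and 1 fell. Among 6 tested mesenchymal markers 1 rose and 2 fell, and among 5 epithelial markers 0 rose and 1 fell. Over all genes 16.8% rose and 10.2% fell. The summed signal of the 6 epithelial markers was 93113 and 94850 in control and 66022 and 75505 with fluoxetine. Among them Krt14 went from 352 and 381 to 68.8 and 79.1. The summed signal of the mesenchymal markers was 32854 and 41541 against 31070 and 35304. Of 4 endothelial markers 1 was well above background. The part of these markers in the results below was not tested.

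Values below are scaled log2 signals, obtained by taking the log2 processed signal relative to the array's own 75th percentile, so that 0 marks that percentile. A probe was tested when 1 group or both had it well above background on each of its arrays, which held for 18 of the 20 probes and for at least 1 probe of each of the 10 genes. A gene is represented by its brightest tested probe. Rose and fell are used for an adjusted p under 0.05 in limma with Benjamini-Hochberg adjustment over all 13539 genes tested. Each log2 change is fluoxetine minus control and is followed by ± its standard error from limma (n = 2 arrays per group). An exact permutation test of 1 gene with 2 arrays against 2 cannot go below p = 0.333.

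With fluoxetine, Cdkn2a fell to 58.8% of its control level, while Cdk4 and Rb1 rose 1.45-fold and 1.36-fold, each by its brightest probe. The calls for Cdk4 and Rb1 were lost with the mean over all tested probes of a gene (adjusted p = 0.0631 and 0.0796 in limma). With probes chosen on the control arrays alone, Cdk4 lost its call (adjusted p = 0.186 in limma) and Rb1 kept it (0.0252). The other 7 of the 10 genes did not pass. Among them Cdkn1b (−0.53) and Cdk6 (−0.41) had the lowest values on the log2 scale, and the D cyclin genes, Cdkn2b and Cdkn2c lay between −0.24 and 0.23. Of the 10 genes, 3 were called, 2 higher and 1 lower, against 26.9% of all genes called, 16.8% higher and 10.2% lower. The share of members called is thus close to that of all genes. Their median change was −0.07 and that of all genes 0.06. At an unadjusted p under 0.05 the members numbered 5 of 10, near the 44.0% of all genes at that level. The arrays measure RNA relative to the rest of each sample, and fewer cells of a kind cannot be told apart from less RNA per cell.

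**Figure D1:**
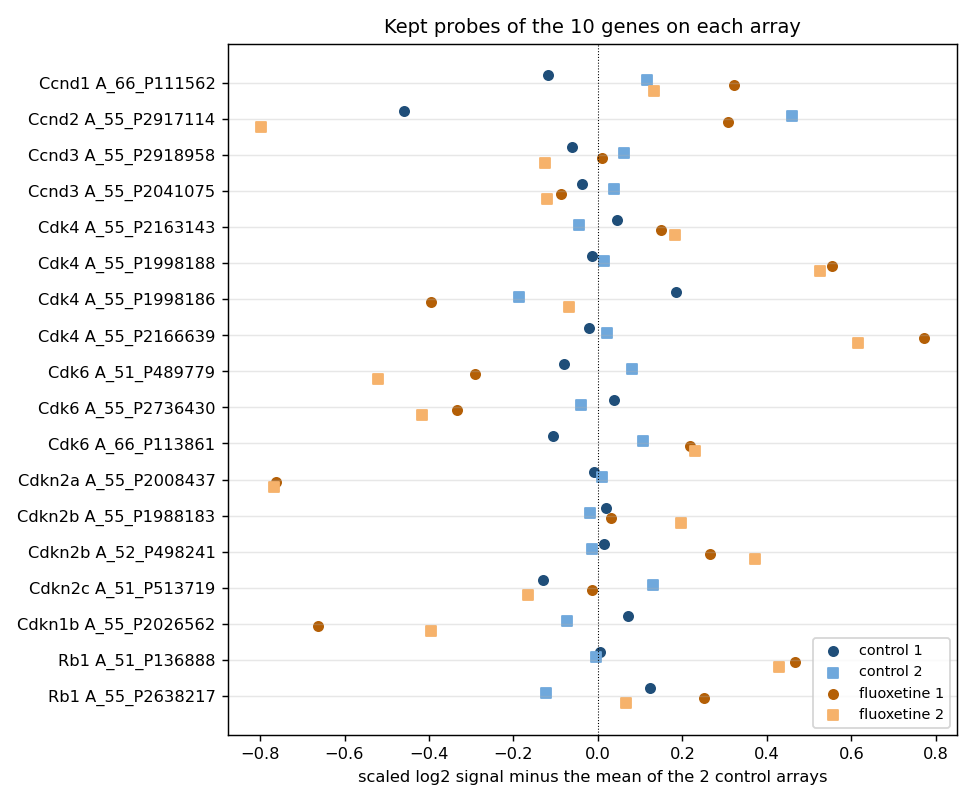
Scaled log2 signal of the 18 tested probes on each of the 4 arrays, drawn as the difference from the mean of the 2 control arrays (x axis, log2 units; blue control, orange fluoxetine; 1 row per probe). The widest gaps between groups are in Cdkn2a, with both fluoxetine arrays near −0.77 and both control arrays near 0, and in 2 of the 4 Cdk4 probes. The Ccnd2 values of the groups overlap and are the most widely spread.

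Ccnd1, the D cyclin gene most widely linked to growth factor signalling, had 1 probe, A_66_P111562. Its scaled log2 signal was 5.57 and 5.81 on the control arrays and 6.01 and 5.82 on the fluoxetine arrays. Fluoxetine 2 lay just above control 2, so the groups did not overlap but were nearly in contact. The change was 0.23 ± 0.13 (95% interval −0.12 to 0.58, adjusted p = 0.241 in limma) and did not pass.

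Ccnd2, a D cyclin gene of several blood and gonadal lineages, was near the lower end of the array's range. Its brighter probe, A_55_P2917114, had processed signals of 36.4 and 63.8 in control and 49.2 and 26.9 with fluoxetine, each marked well above background. The groups overlapped, with the highest value on control 2 and the lowest on fluoxetine 2. The change of −0.24 ± 0.51 turned positive without control 2 (0.22) or without fluoxetine 2 (0.31). The second probe, A_52_P53906, lay between 4.27 and 6.23 and was above background on 0 of the 4 arrays, so no change is given for it.

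Ccnd3, the third D cyclin gene, had 2 tested probes that differed little. The brighter, A_55_P2918958, stood at 4.20 and 4.32 in control and 4.27 and 4.13 with fluoxetine, with overlapping groups. Its change was −0.06 ± 0.10 (95% interval −0.32 to 0.20, adjusted p = 0.667), and that of A_55_P2041075 was −0.10 ± 0.08. The RefSeq table also lists Ccnd3-ps, a pseudogene, and whether the probes tell it from Ccnd3 was not tested.

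Cdk4 encodes the catalytic partner of the D cyclins and was measured by 4 probes, all named after the same transcript. The brightest, A_55_P1998188, was at 4.94 and 4.97 in control and 5.51 and 5.48 with fluoxetine. The groups stood well apart, and the gene rose by 0.54 ± 0.07 (adjusted p = 0.019). A second probe, A_55_P2166639, was at 2.59 and 2.63 in control and 3.38 and 3.23 with fluoxetine, a change of 0.69 ± 0.10 (adjusted p = 0.0223 over the 28270 probes tested).

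The remaining Cdk4 probes had lower estimates. Against the brightest probe, neither difference passed in the limma fit over pairs of probes described below. The adjusted p was 0.0969 for A_55_P2163143 and 0.0798 for A_55_P1998186. A_55_P2163143 stood at 5.07 and 4.98 in control and 5.17 and 5.20 with fluoxetine, a change of 0.17 ± 0.09. A_55_P1998186 stood at 3.31 and 2.94 in control and 2.73 and 3.05 with fluoxetine, a change of −0.23 ± 0.19 with overlapping groups. Neither passed over all probes (adjusted p = 0.218 and 0.405). On the control arrays alone A_55_P2163143 was the brightest probe, and choosing probes on those arrays, a rule added after the data were seen, gave Cdk4 a change of 0.17 (adjusted p = 0.186). The mean over the 4 probes changed by 0.29 ± 0.08 (adjusted p = 0.0631), so the call for Cdk4 rests on the choice of probe.

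The promoter of Cdk4 is shown because it holds an uncommon run of E-boxes, the CACGTG word bound by MYC and related factors. The window covers 250 bases before to 50 after the RefSeq start, on the plus strand of GRCm38.p6 at chr10:127063285-127063584, and capitals mark CACGTG, which reads the same on both strands.
Cdk4: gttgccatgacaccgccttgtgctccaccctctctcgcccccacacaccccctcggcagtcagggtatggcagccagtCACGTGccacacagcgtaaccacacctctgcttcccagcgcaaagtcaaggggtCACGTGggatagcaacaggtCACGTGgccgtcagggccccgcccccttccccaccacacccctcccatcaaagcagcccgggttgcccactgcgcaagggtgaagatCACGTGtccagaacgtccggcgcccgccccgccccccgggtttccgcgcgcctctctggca
This window has 4 matches, where 7.15% of the 32851 RefSeq promoter windows of this length have at least 1 and 8 of them (0.0244%) have at least 4. Windows were found for 7 of the 10 genes, 10 windows in all, and the word occurred in 3 of these 10. A match is a description of the letters only.

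Cdk6 encodes the other kinase partner of the D cyclins. Its brightest probe, A_51_P489779, was at 2.28 and 2.44 in control and 2.07 and 1.84 with fluoxetine, so both fluoxetine arrays lay below both control arrays. The change was −0.41 ± 0.12 (95% interval −0.74 to −0.07, adjusted p = 0.0778) and did not pass. A dimmer probe, A_55_P2736430, changed by a like amount (−0.37 ± 0.09, adjusted p = 0.0531 over probes). The dimmest, A_66_P113861, at −1.56 and −1.35 in control and −1.24 and −1.23 with fluoxetine, went the other way (0.22 ± 0.11).

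For 5 of the 10 genes more than 1 probe was tested, and the probes of 2 of them, Cdk4 and Cdk6, had changes of both signs. Among all 4968 genes with at least 2 tested probes the share with both signs was 42.4%. The difference in change between the brightest probe and each other probe of its gene was fitted with limma over 6350 such pairs, a test added after the values were seen, and 11.2% of pairs were called. None of the 8 pairs of these genes passed. The brightest Cdk6 probe against A_66_P113861 came nearest (−0.63 ± 0.13, adjusted p = 0.0548), followed by the brightest Cdk4 probe against A_55_P1998186 (0.77 ± 0.21, adjusted p = 0.0798). At an unadjusted p under 0.05, 3 of the 8 differed, beside 36.3% of all pairs.

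**Figure D2:**
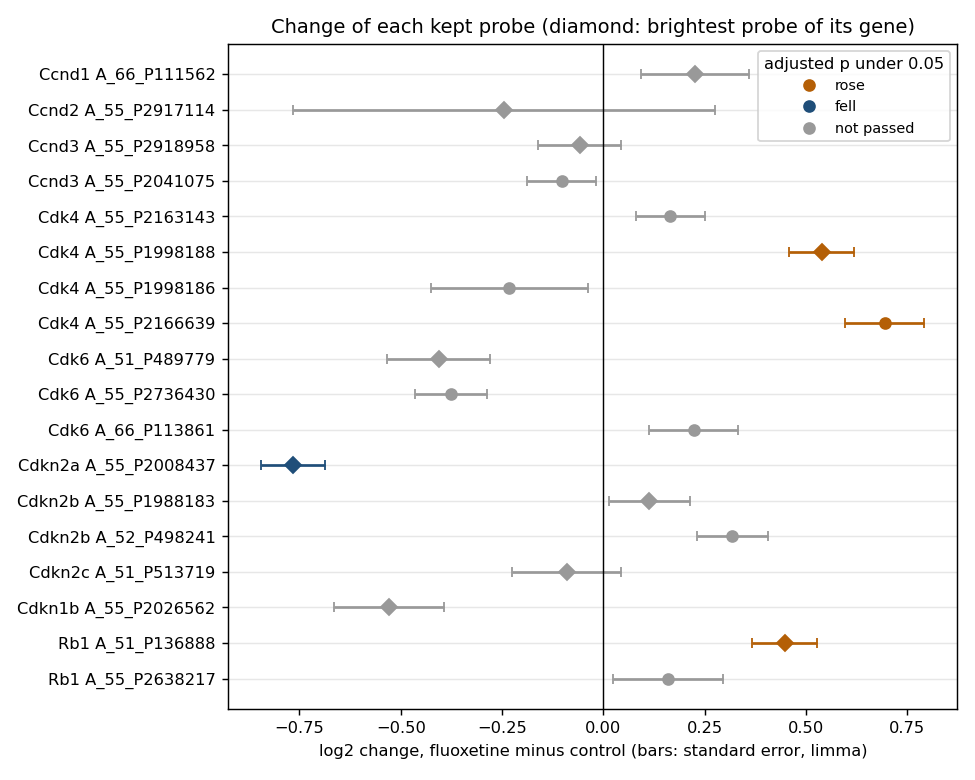
Change of each of the 18 tested probes (x axis, log2, fluoxetine minus control; bars, standard error from limma; diamonds, the brightest probe of each gene; colour, call over all 28270 probes). Of the 4 Cdk4 probes, 2 are at 0.54 and 0.69 and the others at 0.17 and −0.23, whereas the probes of Ccnd3, Cdkn2b and Rb1 lie on 1 side of 0 within each gene.

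Cdkn2a, which gives rise to the CDK4/6 inhibitor p16INK4a and to ARF, had the lowest p-value of the 10 genes. Probe A_55_P2008437 stood at 2.04 and 2.06 in control and 1.28 and 1.28 with fluoxetine. The arrays of each group nearly coincided and the groups were far apart. The gene fell by 0.77 ± 0.07 (1.70-fold, adjusted p = 0.0128), and it did not pass without fluoxetine 1 (adjusted p = 0.081) or without fluoxetine 2 (adjusted p = 0.0699), although its change then stayed at −0.77 and −0.76.

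Both Cdkn2a probes carry the RefSeq accession of the Arf transcript, and no probe carries that of the p16INK4a transcript. Which exons the probes match was not tested, and since both transcripts share their later exons, the fall is given for the gene and not for either product. The second probe, A_51_P144813, had processed signals of 20.3 and 35.2 in control and 17.5 and 15.4 with fluoxetine. It was well above background on 1 control array and 0 fluoxetine arrays and was not tested.

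The promoter at the upstream start of Cdkn2a, from which Arf begins, is shown because it alone among the 10 member windows has a match to the E2F words searched (TTTCCCGC, TTTCGCGC, TTTGCCGC and TTTGGCGC, both strands). It lies on the minus strand of GRCm38.p6 at chr4:89294570-89294869, with 250 bases before the start and 50 after it, and capitals mark the match, which lies between positions −99 and −92 from the start.
Cdkn2a: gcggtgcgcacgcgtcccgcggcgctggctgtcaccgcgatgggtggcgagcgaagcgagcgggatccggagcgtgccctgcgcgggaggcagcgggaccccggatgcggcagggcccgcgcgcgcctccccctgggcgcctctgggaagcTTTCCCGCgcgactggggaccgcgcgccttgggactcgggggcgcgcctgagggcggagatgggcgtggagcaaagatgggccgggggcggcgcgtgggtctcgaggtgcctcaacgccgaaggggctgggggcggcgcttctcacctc
E2F words occurred in 2.27% of all windows. This window had a GC content of 77.0%, where the median over all windows was 52.7%. The SP1 word GGGCGG occurred in 8 of the 10 member windows and in 35.7% of all windows, on either strand. FOXO words (GTAAACA) were in 1 of the 10, the upstream window of Ccnd3, and in 3.65% of all windows, while the AP-1 word TGAGTCA (5.20% of all windows) and the ATF4 word TGATGNAA (3.97%) were in 0 of the 10.

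Cdkn2b, the neighbour of Cdkn2a on chromosome 4, encodes the INK4 inhibitor p15. Probe A_55_P1988183 stood at 1.72 and 1.69 in control and 1.74 and 1.90 with fluoxetine, with fluoxetine 1 just above control 1. The change was 0.11 ± 0.09 (95% interval −0.14 to 0.37, adjusted p = 0.397). A_52_P498241 changed by 0.32 ± 0.09 (adjusted p = 0.0708 over probes), with both fluoxetine values above both control values. The difference between the changes of Cdkn2a and Cdkn2b was not tested.

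Cdkn2c, which encodes the INK4 inhibitor p18, had 1 probe, A_51_P513719. It stood at 2.86 and 3.12 in control and 2.98 and 2.82 with fluoxetine, so the groups overlapped. The change was −0.09 ± 0.13 (95% interval −0.44 to 0.26, adjusted p = 0.617) and turned to 0.04 without control 2.

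Cdkn1b, the gene of p27, also had 1 probe, A_55_P2026562. Its scaled log2 signal was 3.52 and 3.38 in control and 2.78 and 3.05 with fluoxetine, with both fluoxetine arrays below both control arrays and the fluoxetine arrays further from each other than the control arrays. The change of −0.53 ± 0.13 (95% interval −0.88 to −0.18) missed the threshold narrowly (adjusted p = 0.0511). It was past the threshold under 4 of 15 alternatives (other processing or 1 array left out), all 4 of them other processing. A filter that kept only probes above background on all arrays gave an adjusted p of 0.0325 in limma. Keeping all dim probes gave 0.173, and the replicate block 0.0898. With 1 array left out the change lay between −0.66 and −0.39.

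Rb1, the retinoblastoma gene and the substrate on which the kinases converge, rose. Probe A_51_P136888 stood at 2.00 and 1.99 in control and 2.46 and 2.42 with fluoxetine, with no overlap. The change was 0.45 ± 0.07 (adjusted p = 0.0251). A dimmer probe, A_55_P2638217, stood at 0.50 and 0.26 in control and 0.63 and 0.45 with fluoxetine, with overlapping groups and a change of 0.16 ± 0.14 in the same direction. The mean over both probes (0.30 ± 0.09, adjusted p = 0.0796) did not pass, nor did Rb1 without any 1 of the 4 arrays (adjusted p from 0.0648 to 0.125).

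Of the 18 tested probes, 4 were called when the fit ran over probes, 3 higher (2 of Cdk4 and 1 of Rb1) and 1 lower (Cdkn2a). Over all probes 25.6% were called, 12.6% higher and 13.0% lower. The groups did not overlap for 7 of the 10 genes, 4 higher and 3 lower, where 72.5% of all genes showed no overlap, 41.6% higher and 30.9% lower. Every call above rests on few arrays. Without fluoxetine 1 or without fluoxetine 2, limma called 0 of the 13539 genes, with 4073 and 4537 at an unadjusted p under 0.05, of which 5 and 4 were members. Without control 1 the members called numbered 1, Cdkn2a, and without control 2 they numbered 2, Cdkn2a and Cdk4.

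**Figure D3:**
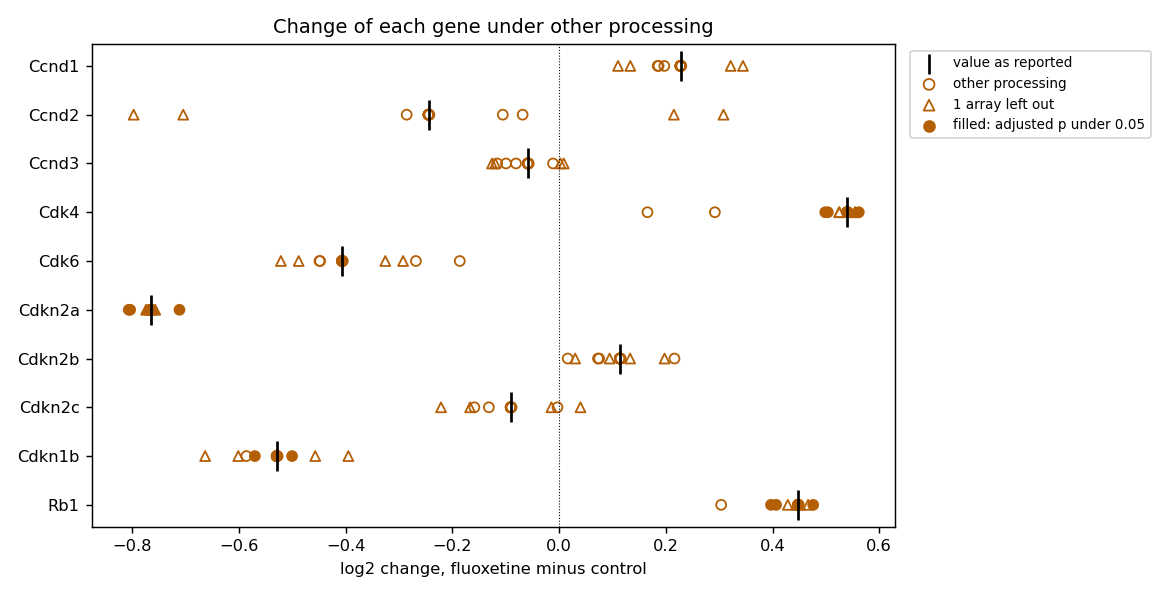
Change of each of the 10 genes (x axis, log2, fluoxetine minus control) as reported (black bar), under other processing (circles) and with 1 array left out (triangles); filled symbols had an adjusted p under 0.05. Cdkn2a stays between −0.81 and −0.71, Cdk4 ranges from 0.17 (another choice of probe) to 0.56 (another background correction), and Ccnd2, Ccnd3 and Cdkn2c have values on both sides of 0.

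Around these genes, 7 lists of pathway genes held 72 tested genes, of which 6 rose, 10 fell and 56 did not pass (22.2% called). Over all genes 26.9% were called, 16.8% higher and 10.2% lower, and these shares are the background for each list that follows. The list of the next step holds CDK2, cyclins E and A, their activating phosphatase, the RB relatives and further inhibitors, and 3 of its 9 tested genes were called. Cdkn1a, the gene of the CDK inhibitor p21, rose by 0.58 ± 0.10 (adjusted p = 0.0289), with processed signals of 533 and 553 in control and 699 and 752 with fluoxetine. Cdkn2d, the gene of the INK4 inhibitor p19, rose by 0.61 ± 0.12 (adjusted p = 0.0323). Cdc25a, a phosphatase that activates CDK2, fell by 0.45 ± 0.08 (adjusted p = 0.0306), from 8209 and 8004 to 5052 and 5577. The list median was 0.13.

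The cyclin and kinase genes of that list did not pass. The values were 0.13 ± 0.10 for the cyclin E gene Ccne1, 0.25 ± 0.09 for the cyclin A gene Ccna2 (adjusted p = 0.106) and −0.02 ± 0.10 for Cdk2, and Ccne2 was left untested because its signal was near background. The other tested probe of Ccna2 had a change of opposite sign. The pocket protein genes Rbl1 (p107) and Rbl2 (p130) changed by −0.27 ± 0.10 and 0.37 ± 0.09 (adjusted p = 0.109 and 0.0566), each beside the rise of Rb1 given above.

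In the list of E2F factors and their DP partners, 3 of 9 tested genes fell and 0 rose, with a median of −0.41. Tfdp2, a DP subunit gene, fell by 0.91 ± 0.09 (adjusted p = 0.0129), from 2700 and 2468 to 1080 and 1403. The activator gene E2f2 fell by 0.69 ± 0.08 (adjusted p = 0.0157), from 2169 and 2115 to 1121 and 1254. The atypical repressor gene E2f7 fell by 0.47 ± 0.08 (adjusted p = 0.026), but its other tested probe had a change of opposite sign. E2f1, the best known partner of RB, changed by −0.13 ± 0.09 (adjusted p = 0.336). E2f4 had the lowest value of the list (−1.13 ± 0.66) but did not pass, with signals of 190 and 102 in control and 29.2 and 111 with fluoxetine.

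Genes that E2F factors are known to drive in S phase had 4 falls and 0 rises among 18 tested, with a median of −0.22 and 14 values below 0. Over all genes 10.2% fell, 16.8% rose and 44.2% had a change below 0. The falls were in the origin licensing genes Orc1 (−0.73 ± 0.09) and Cdc6 (−0.70 ± 0.10), the thymidylate synthase gene Tyms (−0.52 ± 0.07) and Uhrf1 (−0.39 ± 0.08), which encodes a factor for maintaining DNA methylation, with adjusted p from 0.0177 to 0.0373. The replication clamp gene Pcna changed by 0.04 ± 0.11, and Mcm5, with 0.43 ± 0.14, did not pass. The counts depended on the processing. In this list a variance prior that follows signal gave 2 calls higher and 6 lower, and the replicate block 0 higher and 2 lower.

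**Figure D4:**
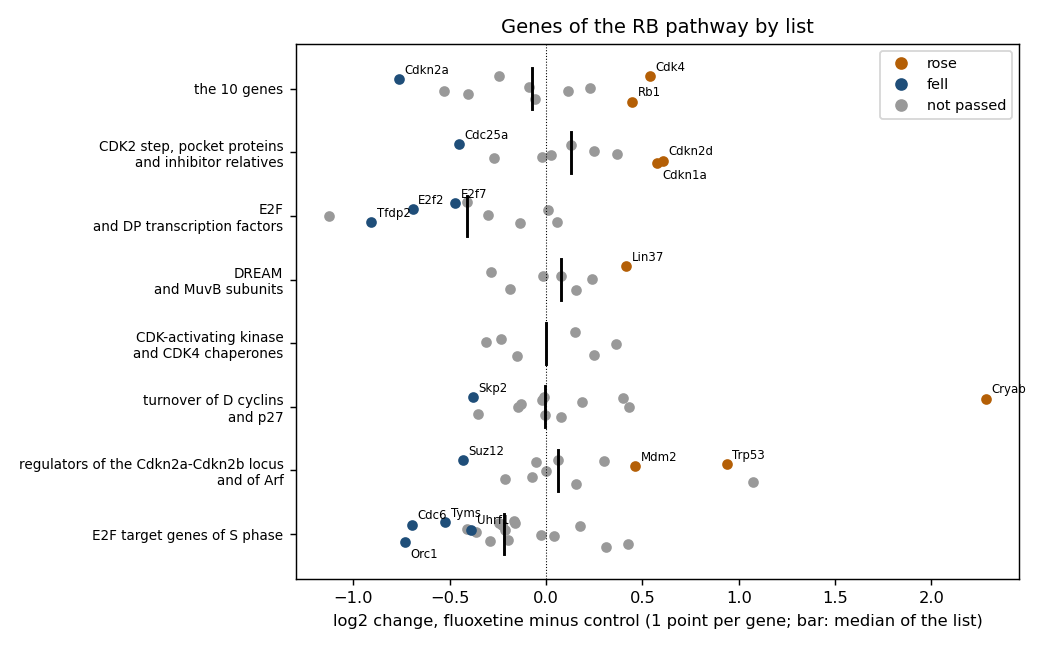
Change of each tested gene (x axis, log2, fluoxetine minus control) in the 10 genes and in 7 lists of the same pathway; black bars are list medians and coloured points the calls. The E2F and DP list has its 3 called genes and its median (−0.41) below 0, and Cryab (2.28) lies farthest from 0.

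Of 7 subunits of the DREAM and MuvB complexes, which control cell cycle genes, Lin37 rose (0.42 ± 0.07, adjusted p = 0.0294) and 6 did not pass. The CDK-activating kinase and the chaperones that load CDK4 had 0 calls among 6 genes in limma, and 3 at an unadjusted p under 0.05, where 44.0% of all genes were. Among 12 genes of D cyclin and p27 turnover, the small heat shock protein gene Cryab, whose product works with FBXO4 on cyclin D1, rose by 2.28 ± 0.08 (adjusted p = 0.00636), from 4067 and 4063 to 16515 and 18979. Skp2, whose product targets p27 for destruction, fell by 0.38 ± 0.09 (adjusted p = 0.0475), close to the threshold. It was not called when the fit ran over probes, with the replicate block or with all dim probes kept.

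Regulators of the Cdkn2a and Cdkn2b locus and of the ARF branch had 2 rises and 1 fall among 11 tested genes, with a median of 0.06. Trp53 rose by 0.94 ± 0.11 (adjusted p = 0.0165), from signals of 188 and 147 to 269 and 302, and Mdm2, whose product degrades p53, by 0.46 ± 0.08 (adjusted p = 0.0307). The Polycomb gene Suz12 fell by 0.43 ± 0.09 (adjusted p = 0.0369), while Bmi1 (−0.05 ± 0.11) and Ezh2 (0.06 ± 0.08), which encode other Polycomb proteins known to silence this locus, did not pass. Suz12 was not called lower with the mean of all tested probes of a gene, with the replicate block or with all dim probes kept. The other tested probe of Bmi1 and 2 of the 4 others of Ezh2 had changes of opposite sign to the values given. Ring1 had the highest value (1.07 ± 0.69) but did not pass, with 625 on fluoxetine 2 and between 124 and 206 on the other arrays. Over the 7 lists the calls numbered 4 without control 1, 10 without control 2 and 0 without either fluoxetine array.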

How the data were processed

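RNA of S-180 cells was labelled with Cy3 from 10 ng per sample, per the labels. Per the file headers, the authors used Feature Extraction 12.1.0.3 and deposited spot intensity on a linear scale; the processed signal is background-corrected and not scaled between arrays. Deposited yes-or-no marks gave spots well above background, saturated or outlying; later steps by the authors are not given in the sources used here. Control spots were left out, as were 47 probes with a non-uniform spot, and 300 probes printed 10 times were averaged. Each array was scaled to the 75th percentile of its probes (356 to 449). Of the probes left, 34645 had 1 symbol and 21913 none. Limma 3.58.1 in R 4.3.3 (lmFit, eBayes, group as the only term) was fitted once on 13539 genes and once on 28270 probes, and was checked on simulated data. With 2 arrays a group, precision is limited by their number. Gene coordinates are not printed, since the array design uses another build (mm9); promoter windows come from RefSeq, GRCm38.p6.

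All 10 members and all their probes are named. Of each further list, every called gene is named where there were 5 or fewer, with Ccne1, Ccne2, Cdk2, Rbl1, Rbl2, E2f1 and Cdkn1a whatever their values; the other uncalled genes were picked as examples after their values were seen. The members and lists were chosen with earlier results of these data known. The deposited files lack the mean spot signal, so normexp used the median. Arrays with equal numbers deviated from their group means with r = −0.14 over probes, and the labels do not say that numbers pair samples.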

Additional observations from a re-analysis of the deposited data

How the results depend on the processing

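The alternatives covered scaling, background correction, the filter on dim probes, flagged spots, the variance prior, the way a gene is represented, the replicate block and leaving out each array. The direction of Ccnd1, Cdk4, Cdk6, Cdkn1b, Cdkn2a, Cdkn2b and Rb1 held under all of these. With 1 array left out, Ccnd2 ranged from −0.80 to 0.31, Ccnd3 from −0.13 to 0.01 and Cdkn2c from −0.22 to 0.04; the positive values came without control 2 (0.22, 0.0027 and 0.040) and, for Ccnd2 and Ccnd3, without fluoxetine 2 (0.31 and 0.0088). The genes called numbered 3648, and from 0 to 2666 with 1 array left out; members called went from 3 to between 0 and 2, and calls in the 7 lists from 16 to between 0 and 10. When dim probes were all kept, limma called 0 of 23771 genes (5270 at an unadjusted p under 0.05), hence 0 members and 0 list genes; more genes were tested then. With a variance prior that follows signal, 5 members and 28 list genes were called, and with the mean of all probes 1 member. With the replicate block, which the labels do not support as a pairing, 1839 genes, 1 member (Cdkn2a) and 6 list genes were called. Crossed numbers, added after seeing the data, gave 2679 genes and 4 members. The brightest probe over the control arrays, also added then, gave 3643 genes and 2 members. The cause of these differences was not tested.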
